A study of Rattus norvegicus with 18 samples.

Results

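Most of the genes described here build the perineuronal net and its hyaluronan scaffold in rat hippocampus: the lecticans Acan, Bcan, Ncan and Vcan, the link protein Hapln1, the cross-linker Tnr, and the hyaluronan synthases Has2 and Has3. The list also holds the glypican Gpc3, a heparan sulfate proteoglycan of the cell surface and not one of these matrix parts. The probes were found by gene symbol, and the list of genes was drawn up with earlier results of these data known. They are 9 of the 12344 genes that the array probes name, read by 13 of 33849 gene probes. The rats were adult male Wistar animals given scopolamine methylnitrate, a blocker of peripheral cholinergic effects, and then intraperitoneal pilocarpine, a muscarinic agonist. Pilocarpine induces status epilepticus (SE), which was stopped hours later with diazepam. Hippocampal RNA was hybridized 3 days after SE (D3, 5 arrays), 7 days after SE (D7, 5 arrays) and within hours of the first spontaneous seizure (Chronic, 5 arrays), 1 array per rat. Saline-treated rats (Control, 3 arrays) gave 1 array for each of these times, and the 3 were taken as a single group, so that a drift with age among controls cannot be told apart from their spread. Control rats received saline alone, so that the effects of pilocarpine, scopolamine, diazepam and SE itself cannot be told apart either. Each rat in the chronic group was taken at its own first seizure, so that Chronic is a stage and not a fixed day.

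Perineuronal nets are lattices of extracellular matrix that wrap the cell body and dendrites of certain neurons, in hippocampus chiefly of parvalbumin interneurons. Hyaluronan, a sugar polymer extruded by the synthases at the cell membrane, forms the backbone, lecticans bind to it through their N-terminal domain, link proteins clamp that bond, and tenascin-R joins lecticans at their other end. Lecticans carry chondroitin sulfate chains, and the matrix they make is known to restrict plasticity in the adult brain.

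Of the 9 genes, Vcan and Gpc3 moved most, in opposite directions and in different time courses. By the brighter probe of each, Gpc3 was lower at all 3 times, and Vcan was high at D3 and close to Control in Chronic. The dimmer Vcan probe stayed above Control in Chronic, and the dimmer Gpc3 probe, near background, passed at no time. The stretches before their start sites are shown with that of Hapln1, the link protein gene that lies beside Vcan on chromosome 2 and was also high at D3. Each is the 250 bases before the start that RefSeq annotates in build GRCr8 (for Vcan, the upstream of a pair of overlapping windows), read 5′ to 3′ on the strand of the gene. They are chr2:22595956-22596205 on the minus strand for Vcan, chr2:22366717-22366966 on the plus strand for Hapln1, and chrX:137157599-137157848 on the minus strand for Gpc3. Capitals mark matches to any of 5 motifs searched on both strands (AP-1, CRE, TCF/LEF, TATA and CCAAT boxes), whose letters follow the sequences.
Vcan: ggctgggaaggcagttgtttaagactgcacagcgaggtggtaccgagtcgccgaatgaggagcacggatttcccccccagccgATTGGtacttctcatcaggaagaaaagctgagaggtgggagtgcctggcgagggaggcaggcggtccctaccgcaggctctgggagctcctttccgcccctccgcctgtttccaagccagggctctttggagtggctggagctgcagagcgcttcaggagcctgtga
Hapln1: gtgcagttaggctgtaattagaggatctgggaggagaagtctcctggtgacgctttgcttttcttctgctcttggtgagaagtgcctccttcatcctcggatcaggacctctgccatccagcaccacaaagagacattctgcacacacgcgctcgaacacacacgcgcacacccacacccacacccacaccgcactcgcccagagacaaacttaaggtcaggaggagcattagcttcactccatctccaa
Gpc3: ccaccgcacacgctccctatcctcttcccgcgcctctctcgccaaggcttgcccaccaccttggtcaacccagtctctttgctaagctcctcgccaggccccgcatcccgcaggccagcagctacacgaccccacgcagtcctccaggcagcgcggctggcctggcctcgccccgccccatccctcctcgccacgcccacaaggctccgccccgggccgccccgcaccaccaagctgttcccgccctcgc
The windows of Vcan, Hapln1 and Gpc3 were 61.6%, 54.0% and 71.6% G and C. The Vcan window held a single CCAAT match, in reverse and starting 167 bases before the start, and those of Hapln1 and Gpc3 held no match to any of the 5. Such windows were at hand for 7 of the 9 genes. Among them, Ncan had a TATA match and Tnr had matches to TCF/LEF and CCAAT. Over all 33469 windows, 34% held the letters CCAAT and 12.9% the TATA box, searched as TATAAA. The TCF/LEF motif was searched as CTTTGA and found in 13.9%. The AP-1 motif was searched as TGANTCA and found in 6.34%, and the cAMP response element (CRE) was searched as TGACGTCA and found in 1.59%. No motif overlapped another in the windows shown. A match is a description of letters and not of binding.

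Values are normalized intensities, that is, a spot's signal above its local background over a scaling constant of its array, which puts the median spot near 1. Because probes differ in brightness, no probe's level is set against another's. Sums over marker genes, given last, weigh bright probes most. Changes are log2 fold changes, with the standard error of limma, a linear model fitted to all 33800 probes tested in all 18 arrays. A gene is said to have risen or fallen where its adjusted p was under 0.05 and the change at least 2-fold. Where the adjusted p was under 0.05 and the change smaller, it is called higher or lower with that p. All p-values given are adjusted over all probes. In whole tissue, fewer cells of a type and less RNA per cell cannot be told apart, and this holds for every level below.

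At D3, 1 of the 9 genes rose (Vcan) and 1 fell (Gpc3), where 5.09% of all 12331 genes tested rose and 0.973% fell. By adjusted p alone, Vcan and Hapln1 were higher and Bcan and Gpc3 lower, 2 of 9 each way, where 11.8% of all genes were higher and 16.5% lower. At D7 no gene of the 9 rose and 1 fell (Gpc3), where 3.80% of all genes rose and 0.487% fell. By adjusted p alone 1 was higher (Vcan) and 2 lower (Has3 and Gpc3), where 8.04% and 15.5% of all genes were. In Chronic none rose and 1 fell (Gpc3), where 2.87% of all genes rose and 0.673% fell, and by adjusted p alone none was higher and 2 were lower (Bcan and Gpc3), where 6.28% and 12.7% of all genes were. These shares leave the list as a whole near the background, with median changes of 0.24, 0.03 and -0.26 at the 3 times, beside -0.10, -0.12 and -0.12 over all genes. The 3 comparisons share the same Control arrays.

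**Figure D1:**
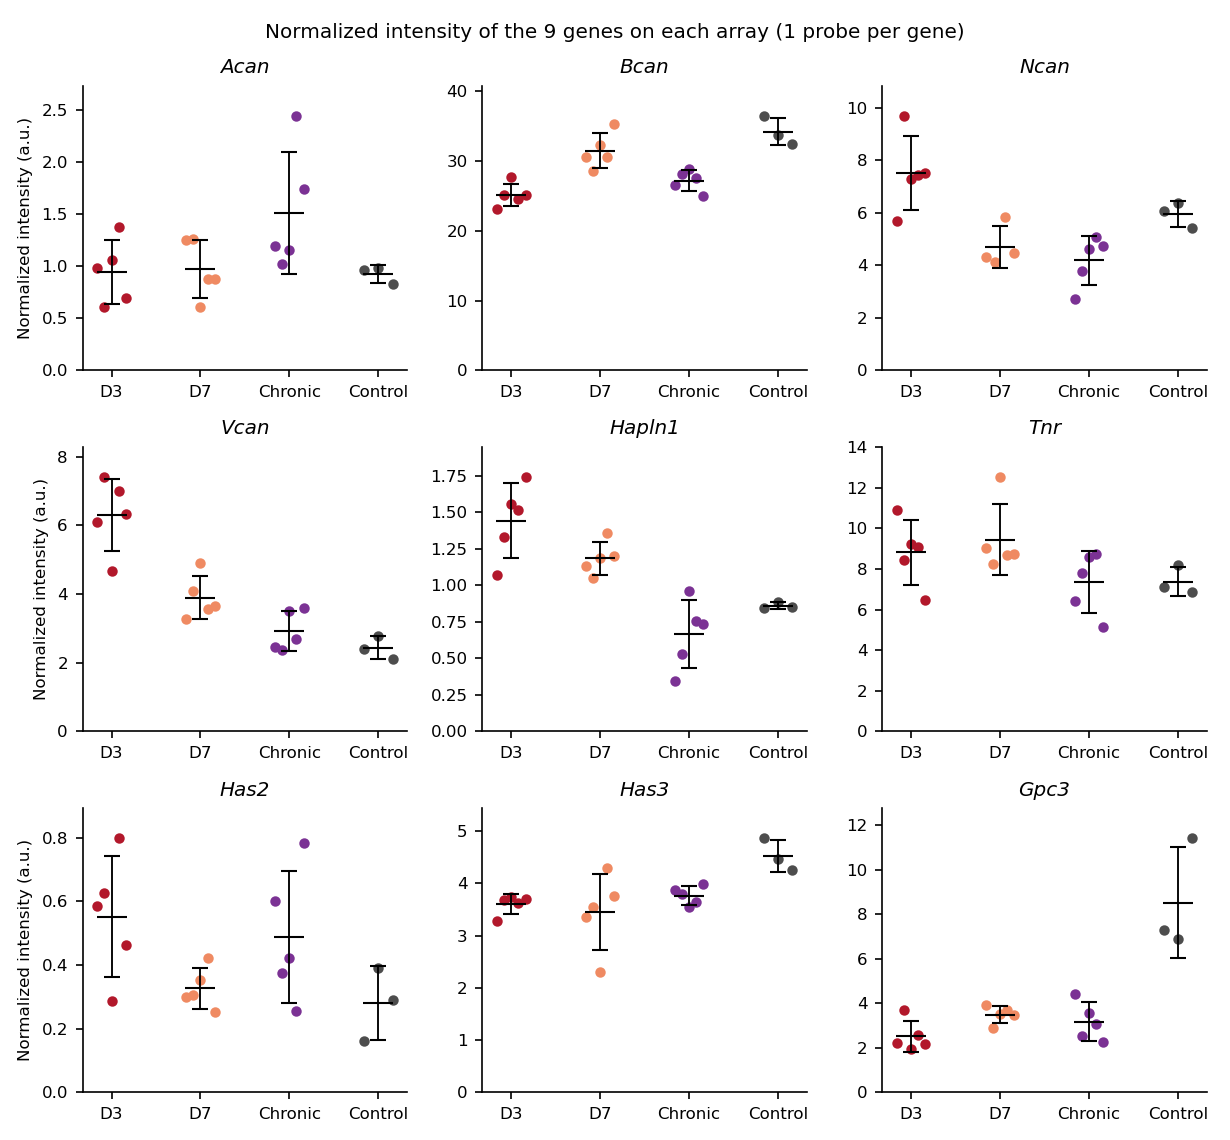
Normalized intensity (arbitrary units, linear axis from 0) of the probe that stands for each of the 9 genes, with 1 point per array, groups from left to right D3, D7, Chronic, Control, and bars for the mean and standard deviation. Vcan lies between 4.66 and 7.39 on the 5 D3 arrays, above all 3 Control arrays, and Gpc3 lies at or below 4.44 on all 15 pilocarpine arrays, under the lowest Control array at 6.89.

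Versican (Vcan), the lectican with the widest expression outside the nervous system, showed the clearest time course. Its brighter probe (GE1116696), designed on the mRNA of the short V3 isoform, gave 6.08, 7.39, 4.66, 7.00 and 6.34 at D3, 3.28, 4.08, 4.90, 3.57 and 3.64 at D7, with 2.45, 2.38, 3.49, 2.70 and 3.58 in Chronic, against 2.40, 2.78 and 2.12 in Control. All D3 and all D7 arrays lay above the 3 Control arrays, while Chronic overlapped Control. Vcan rose at D3 (1.36 ± 0.17, 2.57-fold, adjusted p = 3.14e-05). At D7 it was higher by 1.59-fold (0.67 ± 0.17, adjusted p = 0.0116), or by 1.05 with the mean of both probes (adjusted p = 0.00161), which was called, and in Chronic the difference was 0.25 ± 0.17 (adjusted p = 0.357). The D7 difference did not pass against the D7 control array alone, with 0.47 (adjusted p = 0.318), nor when Control replicate 47 was left out, with 0.58 (adjusted p = 0.0561).

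The difference between the stages was tested in the same model. Vcan fell to a mean of 2.92 ± 0.573 (SD, n = 5) in Chronic, against 6.29 ± 1.05 at D3 (SD, n = 5), a change of -1.11 ± 0.15 with adjusted p = 1.93e-04. In that comparison Vcan and Hapln1 fell, 2 of 9 genes where 0.997% of all genes fell, and by adjusted p alone Ncan was lower too, 3 of 9, where 3.15% of all genes were lower. Between D7 and D3 none of the 9 fell, where 0.454% of all genes did. By adjusted p alone Vcan, 1 of the 9, was lower at D7 than at D3 (-0.69 ± 0.15, adjusted p = 0.0276), where 1.22% of all genes were, and 9 of 25 alternatives took its adjusted p to 0.05 or above (up to 0.0962). Between Chronic and D7 none of the 9 passed, where 0.0811% of all genes were lower by adjusted p alone.

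A dimmer Vcan probe (GE21374), designed on the mRNA of the long V0 isoform, gave the same order. It read 1.48, 1.89, 0.905, 1.44 and 1.62 at D3, 0.884, 0.950, 1.16, 0.609 and 0.855 at D7, with 0.532, 0.597, 0.474, 0.503 and 0.714 in Chronic, against 0.373, 0.399 and 0.225 in Control. The pilocarpine groups lay wholly above Control, although 2 of the 3 Control spots were marked as low signal. This probe rose at D3 (2.14 ± 0.24, 4.42-fold, adjusted p = 1.30e-05) and at D7 (1.44 ± 0.24, 2.70-fold, adjusted p = 9.60e-04), and was higher in Chronic (0.79 ± 0.24, adjusted p = 0.0340). Against the single control of its time the D7 call did not hold (1.13, adjusted p = 0.0901), and the Chronic difference did not pass under 8 of 25 alternatives (adjusted p up to 0.186, with 0.53 when Control replicate 47 was left out). It too fell in Chronic compared with D3 (-1.35 ± 0.21, adjusted p = 0.00106). The plot of the genes with a pair of probes shows both Vcan probes in the same order of groups.

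**Figure D2:**
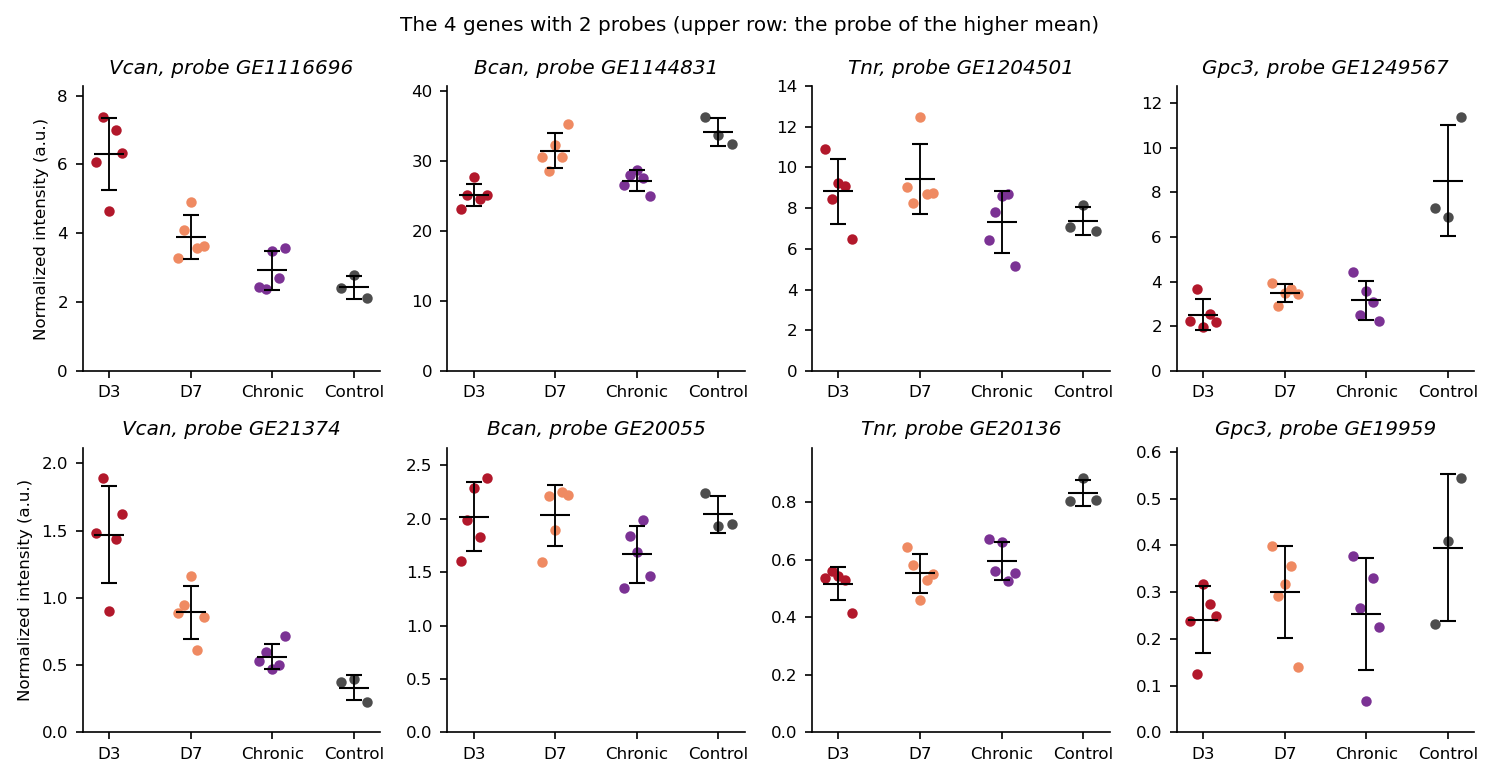
Normalized intensity (arbitrary units, linear axes from 0) on each array for the 4 genes read by 2 probes, with the probe of the higher mean above and the other below, groups in the order D3, D7, Chronic and Control, and bars for the mean and standard deviation. The Vcan probes fall in the same order, the Tnr probes do not, and the lower Gpc3 probe stays at or under 0.544 on every array.

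Neurocan (Ncan), the lectican of the developing and injured brain, read 5.67, 9.66, 7.29, 7.45 and 7.51 at D3, 4.31, 4.12, 5.85 and 4.48 on the 4 D7 arrays with a usable spot, with 2.72, 3.80, 4.63, 5.06 and 4.73 in Chronic, against 6.08, 6.36 and 5.41 in Control. At D3, 4 of the 5 arrays lay above all Control arrays and 1 within their range, and every Chronic array lay below Control. None of the differences from Control passed (0.32 at D3 with adjusted p = 0.239, -0.35 at D7 with 0.217, -0.54 in Chronic with 0.0575). The later stage did differ from the earlier one, with 4.19 ± 0.943 in Chronic against 7.51 ± 1.42 at D3 (SD, n = 5 each), a change of -0.86 ± 0.16 (adjusted p = 0.00538). That p stayed under 0.05 in all 26 alternatives, between 0.00353 and 0.0211. At D7 the change from D3 was -0.67 ± 0.17 (adjusted p = 0.0693).

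Brevican (Bcan), an adult lectican made mainly by glia, read 23.2, 25.1, 27.7, 24.6 and 25.2 at D3, 30.6, 28.6, 32.3, 30.6 and 35.3 at D7, with 26.6, 28.1, 28.8, 27.6 and 25.0 in Chronic, against 36.4, 33.8 and 32.5 in Control. All D3 and Chronic arrays lay below Control, while D7 overlapped it. Bcan was lower by 1.36-fold at D3 (-0.45 ± 0.09, adjusted p = 0.00197) and by 1.26-fold in Chronic (-0.33 ± 0.09, adjusted p = 0.0205), and the difference at D7 was -0.12 ± 0.09 (adjusted p = 0.376). With quantile normalization neither passed (-0.16 at D3 with adjusted p = 0.292, -0.08 in Chronic with 0.657), the Chronic difference did not pass under 6 of 26 alternatives, and the sign at D7 turned to 0.13. A dimmer Bcan probe (GE20055, the brighter being GE1144831) gave changes of -0.03, -0.02 and -0.31 in the 3 comparisons, with adjusted p of 0.926, 0.962 and 0.20.

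Aggrecan (Acan), the lectican that defines most perineuronal nets, read 0.982, 0.613, 1.06, 1.38 and 0.692 at D3, 1.25, 1.26, 0.606, 0.881 and 0.876 at D7, with 1.20, 1.02, 1.16, 2.44 and 1.74 in Chronic, against 0.967, 0.980 and 0.827 in Control. Only the Chronic arrays lay wholly above Control, the 2 highest of them at 1.74 and 2.44. The change was -0.03 ± 0.29 at D3 (adjusted p = 0.965), 0.03 ± 0.29 at D7 (0.961) and 0.63 ± 0.29 for Chronic (0.153). The spread among pilocarpine arrays was thus wide, and no change of Acan passed at any time.

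**Figure D3:**
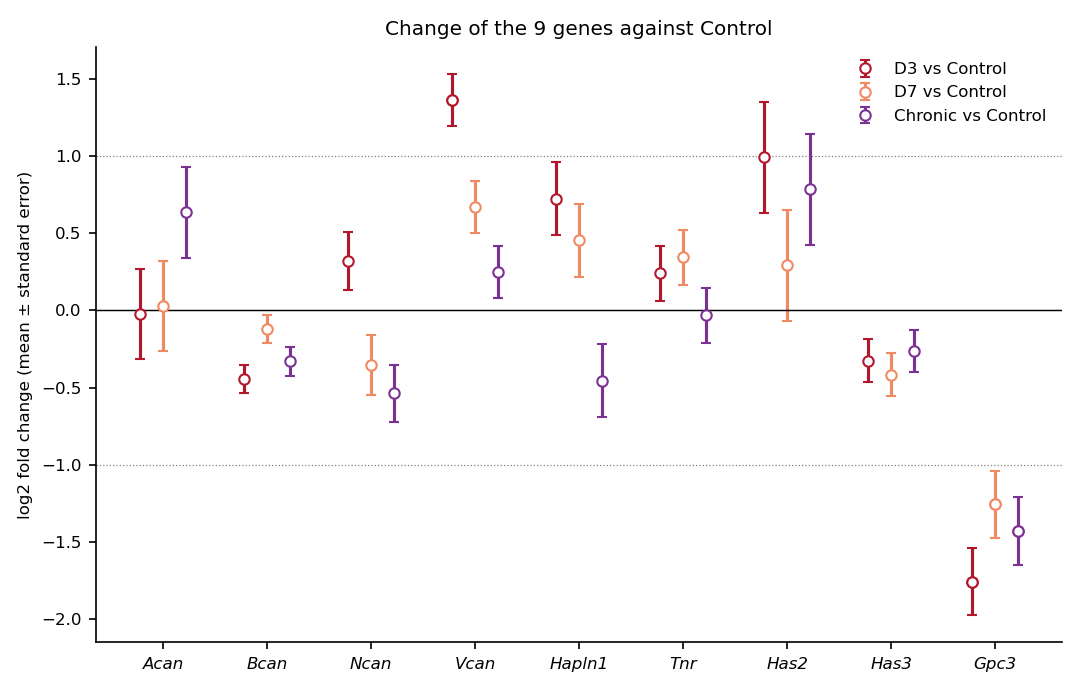
Log2 fold change over Control (mean ± standard error of the model) of the probe that stands for each of the 9 genes, in 3 comparisons (D3, D7 and Chronic), with dotted lines at 2-fold. Only Vcan at D3 (1.36) and Gpc3 at D3, D7 and Chronic (-1.76, -1.26 and -1.43) lie beyond a dotted line with an adjusted p under 0.05.

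The link protein Hapln1, which locks lecticans onto hyaluronan, read 1.07, 1.33, 1.56, 1.52 and 1.74 at D3, 1.13, 1.05, 1.19, 1.36 and 1.20 at D7, with 0.347, 0.533, 0.965, 0.755 and 0.734 in Chronic, against 0.848, 0.889 and 0.851 in Control. D3 and D7 lay above Control on every array, and 4 of the 5 Chronic arrays lay below it. Hapln1 was higher at D3 by 1.65-fold (0.72 ± 0.23, adjusted p = 0.0318), and the differences at D7 (0.45 ± 0.23, adjusted p = 0.191) and in Chronic (-0.45 ± 0.23, adjusted p = 0.206) did not pass. The D3 difference did not pass under 7 of 27 alternatives, among them the single D3 control array (0.75, adjusted p = 0.248) and each Control array left out (adjusted p from 0.0783 to 0.0925), while its size stayed between 0.65 and 0.83 with any 1 array left out.

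Between the stages Hapln1 fell to 0.667 ± 0.235 in Chronic, against 1.44 ± 0.253 at D3 (SD, n = 5 each), a change of -1.18 ± 0.20 (2.26-fold, adjusted p = 0.00254). Without the Chronic array at 0.347, the only low-signal spot, it was -0.96 (adjusted p = 0.00324), short of 2-fold. All Chronic arrays also lay below all D7 arrays (-0.91 ± 0.20, adjusted p = 0.0801), a difference that passed only without Chronic replicate 43 (-1.06, adjusted p = 0.0225).

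In the GRCr8 annotation each lectican gene has a link protein gene as its nearest protein-coding neighbour on one side, Hapln1 for Vcan, Hapln2 for Bcan, Hapln3 for Acan and Hapln4 for Ncan. The changes of each pair are given in turn. Vcan and Hapln1 were both higher at D3 and both fell in Chronic compared with D3. Hapln2 gave 0.46, 0.41 and 0.60 at D3, D7 and Chronic (no adjusted p under 0.0707), where Bcan was lower at D3 and in Chronic. Hapln3 was lower at each time (-0.54, -0.43 and -0.38, adjusted p = 0.00375, 0.0211 and 0.0387), where Acan did not pass. Hapln4 was lower at D3 (-0.97, adjusted p = 0.00206) and D7 (-0.68, adjusted p = 0.0251), where Ncan gave 0.32 and -0.35 and did not pass. In Chronic Hapln4 gave -0.43 (adjusted p = 0.153). The difference between the members of a pair was not tested.

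**Figure D4:**
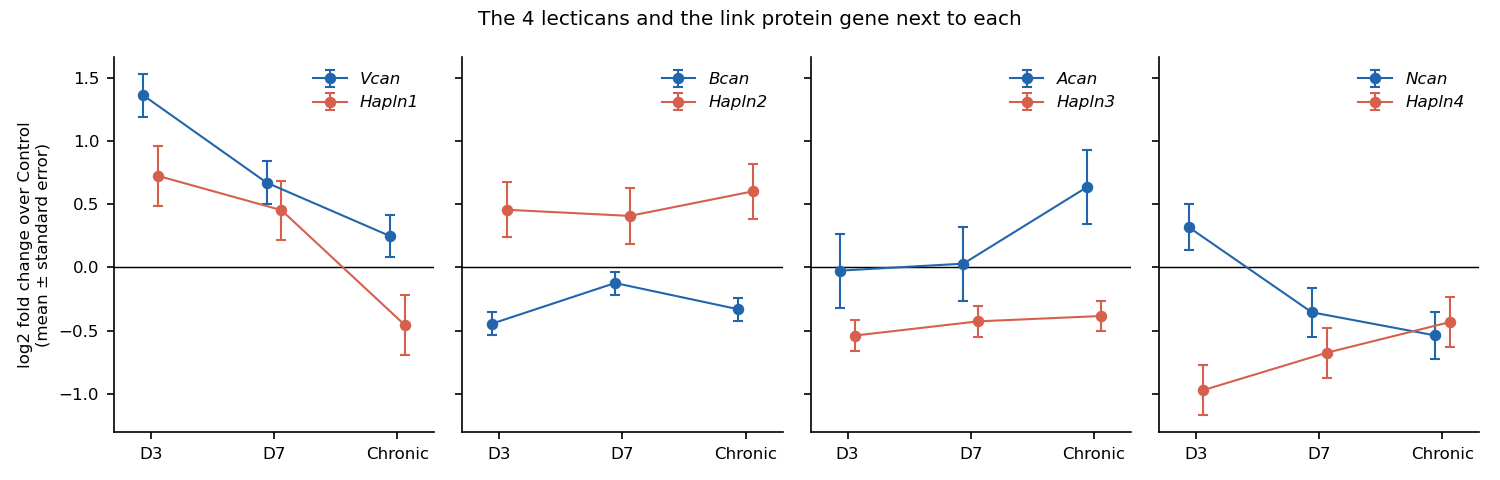
Log2 fold change over Control (mean ± standard error of the model) of each of the 4 lecticans and of the link protein gene next to it, in 3 comparisons (D3, D7 and Chronic). Vcan and Hapln1 are both highest at D3 and lowest in Chronic, Bcan lies below Hapln2 and Acan above Hapln3 at each of the 3 times, and Ncan lies above Hapln4 except in Chronic.

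Tenascin-R (Tnr), which binds lecticans into a net, was read by probes that disagreed. The brighter one (GE1204501) gave 10.9, 8.43, 9.23, 9.10 and 6.46 at D3, 9.02, 8.24, 12.5, 8.67 and 8.75 at D7, with 6.43, 7.81, 8.58, 8.71 and 5.15 in Chronic, against 7.09, 8.17 and 6.87 in Control, and none of its changes passed (0.24, 0.34 and -0.03, adjusted p = 0.370, 0.191 and 0.933). The dimmer one (GE20136) gave 0.535, 0.561, 0.544, 0.530 and 0.416 at D3, 0.644, 0.583, 0.460, 0.529 and 0.549 at D7, with 0.673, 0.562, 0.660, 0.525 and 0.555 in Chronic, against 0.804, 0.884 and 0.808 in Control, so that every pilocarpine array lay below every Control array. It was lower by 1.62-fold at D3 (-0.69 ± 0.16, adjusted p = 0.00393), 1.51-fold at D7 (-0.60 ± 0.16, adjusted p = 0.0142) and 1.40-fold in Chronic (-0.49 ± 0.16, adjusted p = 0.0416). Against the single control of each time, none of these passed (adjusted p = 0.134, 0.137 and 0.466), and of 26 alternatives 4 ended the D7 difference and 11 the Chronic one. Both probes were designed on the same Tnr transcript, and no direction is given for the gene.

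Of the hyaluronan synthases, Has2 was dim. It read 0.586, 0.628, 0.287, 0.798 and 0.464 at D3, 0.300, 0.307, 0.354, 0.422 and 0.253 at D7, with 0.601, 0.375, 0.422, 0.256 and 0.784 in Chronic, against 0.161, 0.392 and 0.290 in Control. Low signal marked 1 of the 5 spots at D3, 4 of 5 at D7, 2 of 5 in Chronic and 2 of 3 in Control, and every group overlapped Control. The change was 0.99 ± 0.36 at D3 (adjusted p = 0.0542), 0.29 ± 0.36 at D7 (0.624) and 0.78 ± 0.36 for Chronic (0.152). The D3 value lay at the limit and was called with the percentile 75 of the arrays set equal (1.05, adjusted p = 0.0452), without D3 replicate 13 (1.21, adjusted p = 0.0185) and without Control replicate 36 (1.28, adjusted p = 0.0396).

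Has3, which makes shorter hyaluronan chains, read 3.28, 3.69, 3.74, 3.63 and 3.70 at D3, 3.36, 3.55, 2.31, 4.30 and 3.76 at D7, with 3.87, 3.79, 3.55, 3.64 and 3.99 in Chronic, against 4.86, 4.47 and 4.25 in Control. All but 1 of the 15 pilocarpine arrays, that at 4.30, lay below the lowest Control array. The differences were small, -0.33 ± 0.14 at D3 (adjusted p = 0.0985), -0.42 ± 0.14 at D7 (1.33-fold, adjusted p = 0.0430) and -0.26 ± 0.14 in Chronic (adjusted p = 0.217). The D7 value did not pass under 15 of 27 alternatives and was -0.28 without D7 replicate 33.

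Glypican-3 (Gpc3), a heparan sulfate proteoglycan held at the cell surface by a lipid anchor, fell at all 3 times. It read 2.22, 3.69, 1.96, 2.56 and 2.17 at D3, 3.92, 2.89, 3.51, 3.68 and 3.46 at D7, with 4.44, 2.52, 3.58, 3.09 and 2.25 in Chronic, against 7.28, 6.89 and 11.4 in Control. No pilocarpine array reached the lowest Control array. The fall was 3.38-fold at D3 (-1.76 ± 0.22, adjusted p = 3.12e-05), 2.39-fold at D7 (-1.26 ± 0.22, adjusted p = 0.00115) and 2.69-fold in Chronic (-1.43 ± 0.22, adjusted p = 6.79e-04). Against the single control of its time it held at D3 (-1.57, adjusted p = 0.00889) and in Chronic (-1.88, adjusted p = 0.0148) but not at D7 (-0.99, adjusted p = 0.102). Without the Control array at 11.4 the changes were -1.53, -1.03 and -1.20, all still called. The pilocarpine groups did not differ from each other past the threshold (D7 minus D3 was 0.50, adjusted p = 0.252).

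A second Gpc3 probe (GE19959), designed on the same transcript as the brighter (GE1249567), was near background, with low signal on 15 of the 18 arrays. It averaged 0.241, 0.300 and 0.254 at D3, D7 and Chronic, against 0.395 in Control, with overlap at every time and no adjusted p under 0.313. With the mean of both probes in place of the brighter one, the Gpc3 change at D7 was -0.83 (adjusted p = 0.0348), short of 2-fold.

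The genes whose levels ran most like those of Vcan and Gpc3 over the 18 arrays were picked by Pearson correlation among 9473 genes, as a description across arrays that include the group differences. For Vcan they were Cenpi (r = 0.946), Ncapd2 (0.942) and Kif18b (0.941), which encode a centromere protein, a condensin subunit and a mitotic kinesin. They rose at D3 by 2.05, 1.28 and 3.07 (adjusted p = 4.65e-05, 3.07e-05 and 5.82e-05) and did not differ from Control past the threshold in Chronic. For Gpc3 they were Ankrd55 (0.913), Trhr (0.896), the receptor for thyrotropin-releasing hormone, and Ctdspl (0.875), with changes of -0.88, -0.73 and -0.58 at D3 (adjusted p = 3.61e-04, 7.41e-04 and 8.76e-04).

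Among the genes around the 9 were receptors that bind hyaluronan. Of 6 measured receptors none fell, while 4 rose at D3, 3 rose at D7 and 1 rose by Chronic. Of all genes, 5.09%, 3.80% and 2.87% rose, while 0.973%, 0.487% and 0.673% fell. The median change of the receptors was 1.34, 1.04 and 0.39, beside -0.10, -0.12 and -0.12 over all genes. Cd44, the main hyaluronan receptor of reactive glia and leukocytes, averaged 7.98 ± 1.23 at D3, 4.25 ± 0.719 at D7 and 3.49 ± 3.00 in Chronic (SD, n = 5 each), against 1.18 ± 0.0919 on the 2 Control arrays with a usable spot. It rose by 2.74 ± 0.39 at D3 (6.70-fold, adjusted p = 1.22e-04), 1.83 ± 0.39 at D7 (adjusted p = 0.00466) and 1.27 ± 0.39 in Chronic (adjusted p = 0.0345). The Chronic value was 0.87 without Chronic replicate 45, and the D7 rise did not hold against its own control (adjusted p = 0.0876). Stab1, a scavenger receptor of macrophages, rose at D3 (1.68, adjusted p = 3.08e-04) and D7 (1.17, adjusted p = 0.00722), which at D7 was 0.91 without Control replicate 36 (adjusted p = 0.0605). Lyve1, a receptor of lymphatic endothelium and border macrophages, rose at D3 (1.31, adjusted p = 0.00291) and D7 (1.23, adjusted p = 0.00554), neither against the control of its time (adjusted p = 0.104 and 0.0829). Hmmr, which is also a spindle protein, rose at D3 alone (1.37, adjusted p = 1.09e-04), and fell at D7 and in Chronic compared with D3 (-1.38 and -1.82, adjusted p = 8.15e-04 and 1.11e-05).

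Beside Has2 and Has3, 5 genes that make or break hyaluronan were measured (Has1, Ugdh, Hyal2, Cemip and Cemip2). None of the 5 rose or fell at any time. Of all genes, 5.09%, 3.80% and 2.87% rose at D3, D7 and Chronic, and 0.973%, 0.487% and 0.673% fell. So few genes cannot be told apart from those shares. The medians of the 5 were -0.27, -0.09 and -0.13, beside -0.10, -0.12 and -0.12 over all genes. By adjusted p alone only Cemip2, a hyaluronidase of the cell surface, was lower at D7 (-0.43, adjusted p = 0.0486), where 15.5% of all genes were.

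Among 10 other link proteins and partners of the net, 1 rose and 1 fell at D3, where 5.09% of all genes rose and 0.973% fell. At D7 and in Chronic 1 fell, where 0.487% and 0.673% of all genes did. Tenascin-C (Tnc), the tenascin of injured tissue, rose at D3 (1.88 ± 0.37, 3.68-fold, adjusted p = 0.00160), with 0.0650 against the single D3 control. Crtac1, a secreted cartilage protein also known as an antagonist of the Nogo receptor, fell at D3 (-1.17), D7 (-1.03) and Chronic (-1.37, adjusted p = 0.00364, 0.0119 and 0.00292). None of the 3 Crtac1 calls held against the control of its time (adjusted p = 0.0975, 0.178 and 0.185), and the D7 call also ended without D7 replicate 33 (-0.84). By adjusted p alone, 5 of the 10 were lower at D3, and 4 at D7 and in Chronic, where 16.5%, 15.5% and 12.7% of all genes were.

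Of the 16 measured genes that build chondroitin sulfate, none fell and 1 rose at each of the 3 times. Of all genes, 5.09%, 3.80% and 2.87% rose and 0.973%, 0.487% and 0.673% fell. By adjusted p alone 2 were higher and 1 lower at D3, 3 higher and none lower at D7, and 2 higher and 2 lower in Chronic. By that measure 11.8%, 8.04% and 6.28% of all genes were higher and 16.5%, 15.5% and 12.7% lower. Named after their values were seen, Chsy1, which builds the chain, was higher at each time (0.77, 0.77 and 0.93, adjusted p = 0.0162, 0.0207 and 0.00949), Csgalnact1, which starts it, was lower in Chronic (-0.66, adjusted p = 0.0239), and B3gat3, which makes its linkage region, was lower at D3 (-0.35, adjusted p = 0.0371) and in Chronic (-0.43, adjusted p = 0.0189). Dse, the epimerase that converts chondroitin into dermatan sulfate, rose at D3 (1.06 ± 0.21, adjusted p = 0.00177) and in Chronic (1.03 ± 0.21, adjusted p = 0.00445) and was higher by less than 2-fold at D7 (0.95, adjusted p = 0.00584), with low signal on 2 of its 3 Control spots. These values lay at the 2-fold limit. The D3 value was under it without D3 replicate 11 (0.99) or Control replicate 26 (0.99) or 36 (0.96), and the Chronic value without Chronic replicate 41 (0.94), 44 (0.97) or 45 (0.9993) or Control replicate 26 (0.96) or 36 (0.94). In Chronic it was 0.71 against the control of its time (adjusted p = 0.344). Chst15, a sulfotransferase, was the gene counted at D7 (adjusted p = 0.0339), but 4 of its 5 D7 spots and all Control spots had low signal (mean 0.247 at D7, against 0.0699 in Control), so that no fold is given, and 7 alternatives ended the call, among them the control of its time (adjusted p = 0.172), quantile normalization (0.107) and Control replicate 26 or 36 left out (0.148 and 0.122).

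Of 4 measured genes for proteases that cut lecticans and their inhibitor, 1 rose at D3, none at D7 and 2 in Chronic, where 5.09%, 3.80% and 2.87% of all genes rose. By adjusted p alone 2 were higher at D3, none at D7 and 2 in Chronic, where 11.8%, 8.04% and 6.28% of all genes were. Adamts9 was higher at D3 by less than 2-fold (0.96 ± 0.27, adjusted p = 0.0162). Adamts1 rose at D3 (1.49 ± 0.42, adjusted p = 0.0158) and in Chronic (1.64 ± 0.42, adjusted p = 0.0149), and Adamts9 rose in Chronic (1.41 ± 0.27, adjusted p = 0.00311). The Adamts1 calls ended without Control replicate 26 or 36 (adjusted p from 0.0594 to 0.0704), and none of these calls held against the control of its time. Of the 9 measured other heparan sulfate proteoglycans, none fell by 2-fold, while 2 rose at D3 (Sdc1 and Hspg2) and 1 (Sdc1) at each later time. Of all genes, 5.09%, 3.80% and 2.87% rose and 0.973%, 0.487% and 0.673% fell, so that no fall among these 9 is near the background. By adjusted p alone 3 were higher at D3 and 2 at each later time, where 11.8%, 8.04% and 6.28% of all genes were. Sdc4, named after its values were seen, was among them each time (0.44, 0.51 and 0.59, adjusted p = 0.0327, 0.0207 and 0.0111). By the same measure 1 was lower at every time, where 16.5%, 15.5% and 12.7% of all genes were. It was Sdc3, the syndecan of neurons, named after its values were seen, with 24.8 ± 3.94 at D3, 27.6 ± 2.25 at D7 and 23.6 ± 2.92 on Chronic arrays (SD, n = 5 each), against 43.8 ± 3.84 in Control (SD, n = 3), and no overlap. Its changes were -0.84, -0.67 and -0.90 (adjusted p = 2.59e-04, 0.00292 and 5.53e-04). Gpc1, Gpc2 and Gpc4, the glypicans measured beside Gpc3, gave -0.02, 0.30 and 0.09 at D3, with no adjusted p under 0.226 at any time. Sdc1, a syndecan of epithelia and plasma cells, was at least 2.46-fold higher at D3 (0.719 against 0.0915 in Control, adjusted p = 9.63e-04), at least 1.47-fold at D7 and at least 1.38-fold in Chronic, bounds set by the low-signal limit because all Control spots had low signal. Only 2 of 5 Sdc1 spots at D7 and 3 of 5 in Chronic were marked good, and the Chronic difference did not pass without Control replicate 26 (adjusted p = 0.066) or with the arrays of only the 2 groups (0.0544). Against the control of its time Sdc1 passed neither at D7 nor in Chronic (adjusted p = 0.20 and 0.301). Hspg2, the basement membrane proteoglycan perlecan, was at least 1.78-fold higher at D3 (0.589 against 0.286 in Control, adjusted p = 0.0429), a difference that did not pass under 10 alternatives, among them without Control replicate 26 (0.75, adjusted p = 0.245).

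Markers of cells that make or carry these genes also moved. Summed over 6 of 7 interneuron markers, D3 arrays lay between 53.1 and 60.9, D7 arrays between 39.1 and 63.4 and Chronic arrays between 49.4 and 63.4, against 79.5 and 91.8 in Control. Pvalb, the marker of the interneurons that bear most nets, fell at D3 (-1.20 ± 0.20, adjusted p = 3.59e-04). Summed over 3 of 5 markers, excitatory neurons gave 35 to 44.7 on D3 arrays, 31.3 to 53.3 on D7 arrays and 30.1 to 49.1 on Chronic arrays, against 63.3 to 70.6 in Control. Both sums lay below Control on every pilocarpine array, but single markers differed. The excitatory sum was mostly Slc17a7, which averaged 34.5 at D3, 36.8 at D7 and 36.5 on Chronic arrays, against 57.0 in Control. Calb1 fell at D3 and in Chronic (-1.35 and -1.27, adjusted p = 0.00218 and 0.00658). Camk2a, outside the sum, fell at D3 (-1.14, adjusted p = 0.00800). Prox1, a marker of granule cells, was lower at D3 (-0.76, adjusted p = 0.00413) but gave 0.51 in Chronic (adjusted p = 0.0561), with 1.38 to 1.97 on Chronic arrays, against 1.05 to 1.21 in Control. Of the 6 measured interneuron genes, 3 were lower by adjusted p alone at each time (Pvalb, Kcnc1 and Gad1), where 16.5%, 15.5% and 12.7% of all genes were. Gad2 gave 0.12, -0.04 and -0.16 (adjusted p = 0.781, 0.928 and 0.727). The 6 astrocyte markers gave sums of 230 to 266 on D3 arrays, 234 to 260 on D7 arrays and 158 to 245 on Chronic arrays, against 186 to 203 in Control. Gfap rose at each time (2.15, 1.91 and 1.75, adjusted p = 3.94e-07, 4.90e-06 and 1.66e-05). Aqp4 was higher at D3 and D7 (0.45 and 0.54, adjusted p = 0.0187 and 0.00878) and Slc1a2 at D3 alone (0.72, adjusted p = 0.00997). Slc1a3, Aldh1l1 and Gjb6 did not pass at any time. The 6 microglial markers gave 92.5 to 127 on D3 arrays, 79.2 to 205 on D7 arrays and 76.5 to 108 on Chronic arrays, against 45 to 51.3 in Control, so that microglia lay above Control throughout. At D3, D7 and Chronic in turn, 3, 5 and 3 of the 6 rose, where 5.09%, 3.80% and 2.87% of all genes did. The 5 markers of oligodendrocyte precursors, a known source of Vcan, gave 28.1 to 30.1 on D3 arrays, 29 to 35.4 on D7 arrays and 26.6 to 33.2 on Chronic arrays, against 30.2 to 32.4 in Control. All D3 sums of these markers lay just below Control, and the D7 and Chronic sums overlapped it. At D3 Olig1 was lower (-0.42, adjusted p = 0.00487) and Sox10 higher (0.41, adjusted p = 0.0472), and Pdgfra, Cspg4 and Olig2 did not pass. At D7 and in Chronic 1 of the 5 was lower by adjusted p alone, where 15.5% and 12.7% of all genes were. Olig1 gave 12.1 to 14.9 on D7 arrays and 12.6 to 15.4 on Chronic arrays, against 16.2 to 17.9 in Control. For 4 of 5 oligodendrocyte markers the sums were 115 to 191 on D3 arrays, 149 to 200 on D7 arrays and 148 to 214 on Chronic arrays, against 125 to 156 in Control. Sums for 5 of 6 fibroblast markers and 4 endothelial markers overlapped Control at every time, but single markers differed. By adjusted p alone 1 endothelial marker was lower at each time and 1 fibroblast marker in Chronic. By that measure 16.5%, 15.5% and 12.7% of all genes were lower at D3, D7 and Chronic. Flt1, an endothelial marker, gave 3.82 to 4.29 on D3 arrays, 3.03 to 4.72 on D7 arrays and 4.04 to 5.03 on Chronic arrays, against 6.14 to 6.57 in Control. Sums over 3 of 5 choroid plexus markers varied widely within every group (0.601 to 8.49 at D3, 0.911 to 13.6 at D7, 0.749 to 12.8 for Chronic arrays, against 0.818 to 4.97 in Control). Of the 5 measured, 1 fell at D7, where 0.487% of all genes did. Ttr, outside the sum, gave 2.13 to 2.80 on the 3 D7 arrays with a usable spot, against 5.16 to 225 in Control. The part of any of these cells in the changes of the 9 genes was not tested.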

How the data were processed

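Hippocampal RNA of 18 rats was read on 1-colour CodeLink whole genome arrays, 1 rat per array. The deposited files hold, per the file headers, the raw intensity of each spot, already above local background, and a normalized intensity, which the authors made by dividing by 1 constant per array (97.3 to 190). Nothing more was normalized here. Spots marked good or low signal were kept and all others (0.699%) set as missing. Values under percentile 1 of an array were set to it, and log2 was taken.

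A probe was tested where no pilocarpine group had fewer than 3 values and Control no fewer than 2, which left 33800 probes. All 4 groups entered a single limma fit (version 3.58.1, under R 4.3.3) with eBayes and an intensity trend. P-values were adjusted by Benjamini and Hochberg over all probes. They weigh each difference of means against the spread between rats within the 4 groups, and the number of arrays limits the precision. The median residual SD was 0.291 on the log2 scale. A gene with several probes was represented by the brightest. The fit was tested on simulated data. Gene names came from the platform annotation or RefSeq.

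The 9 genes and all lists were chosen with earlier results of these data known. Named by rule were the 9 genes, in each list other than the cell type markers up to 4 genes that passed against Control, and the 3 genes most like each gene of the 9 that passed. Single markers of cell types were not named by that rule. Alternatives were another control choice, scaling, floor, spot filter, variance model, probe rule and test, and each array left out. Arrays of the same group correlated at 0.949 to 0.970 and those of different groups at 0.928 to 0.968.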

Additional observations from a re-analysis of the deposited data

Results flagged for a closer look

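Between the stages after SE, 3 of the 9 genes differed by a direct test in the limma model. By adjusted p alone, 3.15% of all genes were lower and 0.706% higher in Chronic against D3. At D7 against D3, 1.22% were lower and 0.219% higher. Vcan changed by -1.11 in Chronic against D3 (adjusted p = 1.93e-04) and by -0.69 at D7 against D3 (adjusted p = 0.0276), and its dimmer probe by -1.35 in Chronic against D3 (adjusted p = 0.00106). Hapln1 changed by -1.18 and Ncan by -0.86 in Chronic against D3 (adjusted p = 0.00254 and 0.00538). In each of these the later stage was the lower one, as it was for most of all genes that passed in these comparisons.

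Single arrays stood far from the rest of their group in 3 of 39 sets of 4 or 5 arrays examined (1 probe in 1 group each), where chance gives about 1 in 20. They were D7 replicate 33 with 12.5 for the brighter Tnr probe, D3 replicate 15 with 0.416 for the dimmer Tnr probe, and D3 replicate 11 with 3.28 for Has3.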

How the results depend on the processing

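No paired analysis was possible because every array carries a number of its own. The background correction by normexp was not run, since the deposited raw intensity is already above background. Of 2010 fold changes recomputed under an alternative, 1947 kept their direction and their side of the threshold, 38 changed sign, 16 were called only under the alternative and 9 lost their call under it. Some alternatives cannot change the fold change itself, among them the variance model, the end of the fold limit and an array left out of a group not compared. Most of the 16 were called only because the 2-fold limit was dropped. Low signal limits Has2, the dimmer Vcan probe in Control and the dimmer Gpc3 probe.

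With no 2-fold limit, 4 of the 9 genes passed at D3, 3 at D7, 2 in Chronic and 1 at D7 against D3. By that rule 11.8%, 8.04% and 6.28% of all genes were higher at D3, D7 and Chronic, and 16.5%, 15.5% and 12.7% lower. At D7 against D3, 0.219% were higher and 1.22% lower. For the counts that follow, no share of all genes under the same rule is given, so they describe only how the calls moved. With only the control of the same time, 0 passed at D7. With the methods' t-test after Benjamini-Hochberg, 0 passed at D7, 0 in Chronic and 1 in Chronic against D3, and with good spots alone 1 passed in the last. With 1 array left out, 2 to 3 passed at D3, 1 to 2 in Chronic against D3 and 0 to 1 in Chronic against D7.

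The sign turned only in differences that did not pass. With percentile 75 set equal, Acan at D3 was 0.0307, Tnr in Chronic 0.078 and the dimmer Bcan probe 0.0272 at D3 and 0.0927 at D7. With quantile normalization, Bcan at D7 was 0.13, its dimmer probe 0.0397, and Tnr in Chronic 0.14. With the control of the same time, Acan at D7 was -0.0582, the dimmer Bcan probe at D7 0.0603, Tnr in Chronic 0.0662 and Has2 at D7 -0.28. With the mean of all probes, Bcan in Chronic against D3 was -0.0823, and Tnr was -0.23 at D3 and -0.13 at D7. The cause was not tested. With 1 array left out, Acan at D3 lay between -0.18 and 0.12, at D7 between -0.0745 and 0.19, and at D7 against D3 between -0.0861 and 0.21. The dimmer Bcan probe at D3 lay between -0.0916 and 0.0513, and at D7 between -0.0556 and 0.0705. Tnr ran from -0.10 to 0.0888 in Chronic and -0.0044 to 0.18 at D7 against D3, Has2 from -0.0645 to 0.58 at D7, and Has3 from -0.17 to 0.0491 at D7 against D3.

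The scaling also moved the whole array. With the percentile 75 set equal, the median of all probes at D7 was 0.0454, beside -0.0627 as reported. Probes called higher and lower were, for D3, D7 and Chronic in turn, 1291 and 285, 1219 and 66, and 969 and 121 with the percentile 75 set equal, and 1131 and 256, 776 and 135, and 623 and 130 with quantile normalization, beside 1157 and 395, 1035 and 146, and 770 and 207 as reported.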
